A study of Homo sapiens with 6 samples.

Results

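Sites that the authors marked as lying in a repeat were examined in 6 lists of RNA binding sites. The lists came from PAR-CLIP, in which 4-thiouridine is built into RNA, ultraviolet light couples the labelled RNA to proteins bound to it, and RNA recovered with the protein is sequenced. Members were all lines of the 6 lists with a score of 0, the authors' mark for a repeat. Every other line carried a score of 1000. There were 19057 such sites among 464799, or 4.10%. The mark names neither the kind of repeat nor the annotation it was taken from.

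All libraries were made from FlpIn T-REx HEK293 cells, a human embryonic kidney line, each carrying 1 stable transgene with a FLAG-HA tag. The tagged proteins were I304N FMR1 isoform 7, I304N FMR1 isoform 1, FXR1, FXR2, wild-type FMR1 isoform 7 and wild-type FMR1 isoform 1, with 1 library each. Cells received 1 µg/ml doxycycline, which switches the transgene on, and 100 µM 4-thiouridine for 16 h, then 365 nm light. The labels do not say whether the cells' own FMR1, FXR1 and FXR2 were removed, and no library from cells without a tagged protein was analysed here.

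FMR1 is the RNA-binding protein lost in fragile X syndrome, and FXR1 and FXR2 are its paralogs. These proteins bind mRNA, are found with ribosomes and are known as regulators of translation. I304N replaces an isoleucine with an asparagine within one of the KH domains, which are RNA-binding folds. Repeats are stretches present in many copies in the genome: interspersed elements such as Alu and LINE sequences, which lie in introns and untranslated regions of many genes, copies of structural RNA genes such as those for ribosomal RNA and transfer RNA, and simple or satellite arrays. A short read from a repeat can match several copies, so the position given to it is less certain than that of a read from unique sequence. The gene, transcript part and sequence under each site were not analysed here.

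The number of repeat-marked sites was 3085 for I304N isoform 7, 4007 for I304N isoform 1, 551 for FXR1, 1350 for FXR2, 3538 for wild-type isoform 7 and 6526 for wild-type isoform 1. The whole lists held 88644, 132219, 9017, 34521, 78495 and 121903 sites in the same order. Site numbers stand in for depth, since the lists hold no reads. Wild-type isoform 1 had the widest marked sites on average, 32.6 nt (SD 38.0 across sites), against 20.5 to 28.4 nt in the other libraries. Its median was 25 nt, against 19 to 24 nt, so the mean was raised by a tail of wide sites, up to 1425 nt.

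Each site name holds a group number and a running number, and the mark belonged to the group. Of 396399 groups over the 6 lists, 48676 held more than 1 site. In none of these did marked and unmarked sites occur together, and 1760 of them were marked throughout. Sites of a group therefore do not count as separate evidence of a repeat. Marked groups held 1.17 sites on average for I304N isoform 7, 1.16 for I304N isoform 1, 1.01 for FXR1, 1.02 for FXR2 and 1.04 for wild-type isoform 7. In wild-type isoform 1 they held 1.40, with up to 14 sites in a group.

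The share of sites that were marked was set beside its counterpart for each pair of protein forms. Both I304N libraries held a smaller marked share than the wild-type library of the same isoform. I304N isoform 1 had 3.03% (95% exact Clopper-Pearson interval 2.94 to 3.12) against 5.35% (5.23 to 5.48) in wild-type isoform 1, a ratio of 0.566 (exact conditional interval 0.544 to 0.589). I304N isoform 7 had 3.48% (3.36 to 3.60) against 4.51% (4.36 to 4.66) in wild-type isoform 7, a ratio of 0.772 (0.735 to 0.811). Of 23 chromosomes (1 to 22 and X), the marked share was smaller with I304N on 23 in isoform 1 and on 22 in isoform 7. Intervals cover counting error only, and with 1 library per form the differences could not be tested against the spread between repeat experiments. Counted as groups in place of sites, the ratios were 0.609 and 0.758. Among sites overlapped in another library, a ratio added after the data had been seen, isoform 1 had 0.688 (0.655 to 0.723). For isoform 7 the difference was then within counting error, with 3.28% in I304N isoform 7 against 3.36% in wild-type isoform 7, a ratio of 0.975 (0.919 to 1.04).

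FXR1 had the largest marked share and FXR2 one between the FMR1 forms. Among FXR1 sites 6.11% (5.62 to 6.62) were marked and among FXR2 sites 3.91% (3.71 to 4.12), a ratio of 1.56 (1.41 to 1.73) for FXR1 over FXR2. Over wild-type isoform 1, FXR1 had a ratio of 1.14 (1.04 to 1.25) and FXR2 one of 0.730 (0.688 to 0.775). Minus-strand FXR1 sites stood further above wild-type isoform 1, with a ratio of 1.29 (1.14 to 1.47), and on the plus strand the ratio was 1.03 (0.911 to 1.17).

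The mark was more frequent on the plus strand in every library. In I304N isoform 7, 4.34% of plus-strand sites and 2.58% of minus-strand sites were marked. I304N isoform 1 had 3.87% and 2.16%, and FXR1 had 6.16% and 6.06%. FXR2 had 4.27% on the plus and 3.52% on the minus strand. Wild-type isoform 7 had 5.13% and 3.86%, and wild-type isoform 1 had 5.97% and 4.69%. The gap was widest in the I304N libraries and lay within counting error in FXR1.

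**Figure D1:**
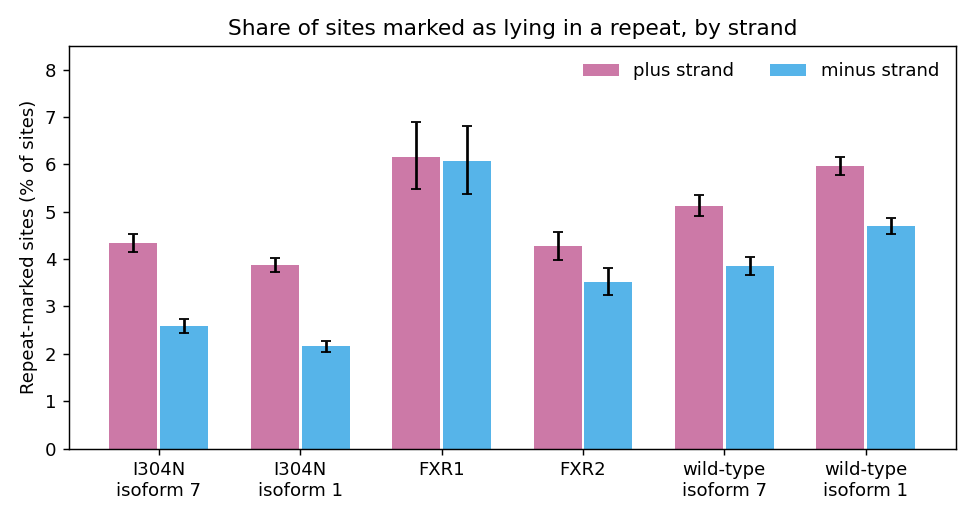
Share of sites marked as lying in a repeat (percent, vertical axis) on the plus and minus strand of each library (horizontal axis); error bars are exact 95% Clopper-Pearson intervals. The plus-strand bar is higher in all 6 libraries, with 3.87% against 2.16% in I304N isoform 1 and 6.16% against 6.06% in FXR1.

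Marked sites were compared with the other sites of the same library on 8 measures, with the library as the unit and an exact sign-flip permutation test over the 6 differences (two-sided, Benjamini-Hochberg adjusted over the 8). The smallest p this design allows is 0.03125. None of the 8 measures reached an adjusted p below 0.05. Of these, 3 were higher at marked sites in 6 of 6 libraries, and each of the 3 had p = 0.03125 and an adjusted p of 0.0833 in the exact test. So few measures at the smallest p could not pass after adjustment, whatever the size of their differences. The lack of a pass therefore does not show that there was no difference. The libraries come from 1 cell line and share sites, so they are not fully independent.

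Solitary sites were the first of these. On average 36.2% of marked sites and 24.3% of other sites had no same-strand neighbour from their own library within 1000 nt, a difference of 11.9 percentage points (SD 7.98, n = 6, exact test above). Among marked sites the share without a neighbour was 23.7% for I304N isoform 7, 23.7% for I304N isoform 1, 62.4% for FXR1, 44.4% for FXR2, 50.0% for wild-type isoform 7 and 13.0% for wild-type isoform 1. For other sites it was 16.0%, 15.2%, 45.2%, 28.7%, 27.7% and 12.8% in that order. Wild-type isoform 1 thus showed almost no gap, and wild-type isoform 7 the widest.

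When neighbours were split by kind, marked sites kept company with each other. In I304N isoform 7, 59.3% of marked sites had another marked site within 1000 nt, against 6.38% of other sites. In FXR1 these shares were 27.0% and 3.42%, and in wild-type isoform 1 they were 76.7% and 11.8%. Part of this follows from the group, since all sites of a group share the mark. Unmarked neighbours were less frequent around marked sites: 63.4% of them in I304N isoform 7 had one, against 83.8% of other sites, and the shares in FXR1 were 20.5% and 54.6%.

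Strand was the second measure. The plus strand held 58.8% of marked sites and 51.0% of other sites on average, a difference of 7.77 points (SD 5.24, n = 6, same exact test). Between 11 of 23 chromosomes (FXR1) and 22 of 23 (I304N isoform 1) had a higher plus-strand share among marked than among other sites. Chromosomes 6, 9, 11, 12, 16, 21, 22 and X did so in 6 of 6 libraries each. Chromosomes 2 and 19 did so in 2 each, for chromosome 19 the I304N libraries, and chromosome 14 in 1.

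The third measure was chromosome 19, a gene-rich chromosome known for clusters of zinc finger genes. It held 10.1% of marked sites and 6.84% of other sites on average, a difference of 3.27 points (SD 1.65, n = 6, same exact test). The widest gap was in wild-type isoform 1, with 9.88% of marked sites (9.17 to 10.6) and 4.63% of other sites (4.51 to 4.75). The narrowest was in wild-type isoform 7, with 7.04% (6.22 to 7.93) and 6.33% (6.16 to 6.51). Read by chromosome, 10.8% of the chromosome 19 sites of wild-type isoform 1 were marked, against 4.66% to 8.47% in the other libraries.

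Among the 23 chromosomes, chromosome 19 had the highest marked share in both I304N libraries and wild-type isoform 1. In FXR1 it was chromosome 9 (9.05%), in FXR2 chromosome 11 (5.56%) and in wild-type isoform 7 chromosome 6 (6.46%). Apart from chromosome Y, chromosomes 7, 16 and 19 had a marked share above that of the whole list in 6 of 6 libraries, with means over libraries of 5.50%, 5.29% and 6.54%. Chromosomes 1, 12, 17, 20 and 22 lay below it in all 6, with means between 3.14% on chromosome 17 and 3.83% on chromosome 1. Chromosome Y had only 7 to 24 sites per library, of which 33.3% to 66.7% were marked. The mitochondrial genome had 18 to 242 sites and a marked share of 0% to 5.71%.

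Sharing between libraries went both ways. On average 66.7% of marked sites and 75.9% of other sites were overlapped by a site of at least 1 other library (1 nt or more, same strand), a difference of -9.26 points (SD 7.92, n = 6). The share was lower for marked sites in 5 of 6 libraries (exact permutation p = 0.0625, adjusted p = 0.100). It was 77.0% against 81.9% for I304N isoform 7, 73.7% against 86.7% for FXR1 and 67.8% against 79.2% for FXR2. Wild-type isoform 7 had 57.2% against 77.6%, and wild-type isoform 1 had 49.1% against 57.9%. I304N isoform 1 was the exception, with 75.1% of marked and 72.1% of other sites.

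At the other end, marked sites were found in all 5 other libraries more often than other sites, a tally added after the data had been seen and not tested. Marked sites met all 5 in 3.66% of cases for I304N isoform 7, 2.92% for I304N isoform 1, 18.7% for FXR1, 8.15% for FXR2, 3.17% for wild-type isoform 7 and 2.57% for wild-type isoform 1. For other sites the shares were 1.10%, 0.818%, 10.2%, 2.66%, 1.23% and 1.02%. The ratio lay between 1.83 in FXR1 and 3.57 in I304N isoform 1. In 5 of 6 libraries marked sites thus had the larger share both without any partner and with all 5 partners, and in I304N isoform 1 only with all 5. The mean number of other libraries sharing a site, which averages over both ends, was 1.62 for marked and 1.72 for other sites (difference -0.11, SD 0.23, n = 6, exact permutation p = 0.406, adjusted p = 0.406).

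**Figure D2:**
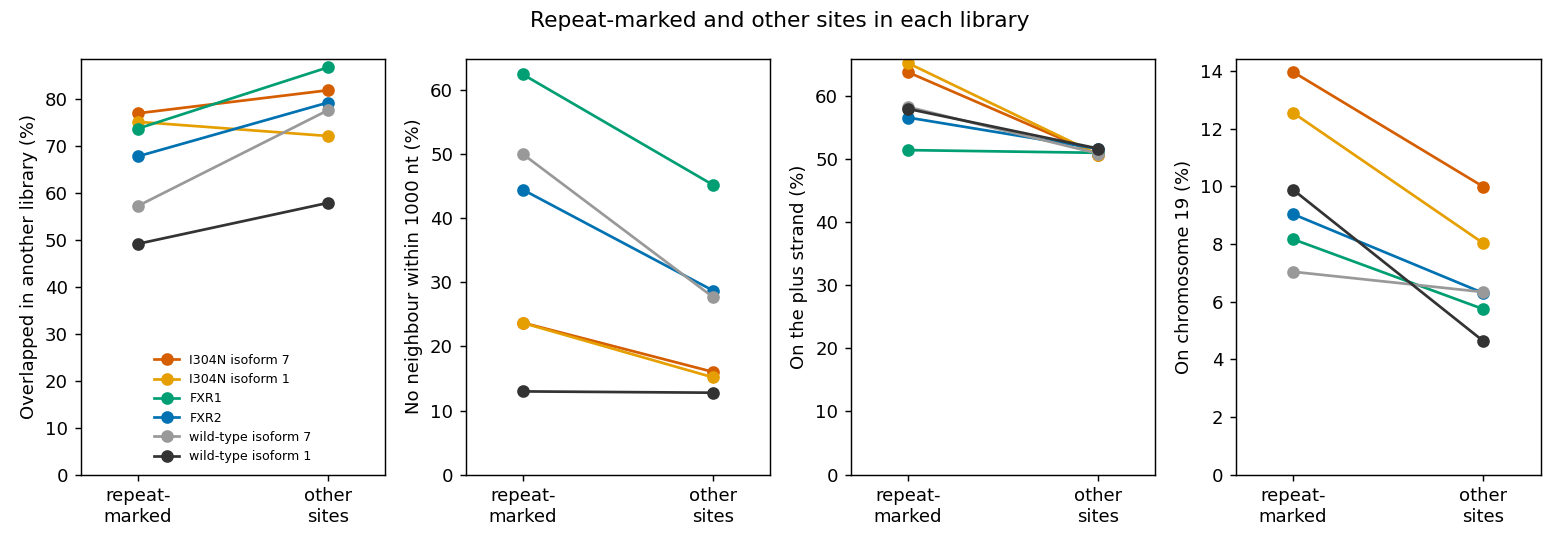
Repeat-marked sites (left point) and other sites (right point) of each library, joined by a line, for 4 measures in percent of sites: overlap with another library, no neighbour within 1000 nt, plus strand and chromosome 19. Marked sites lie higher in all 6 libraries on the last 3 panels, while overlap with another library is lower in 5 of 6.

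The remaining measures showed little. Marked sites averaged 25.8 nt and other sites 24.9 nt (difference 0.86 nt, SD 1.22, n = 6, exact permutation p = 0.0625, adjusted p = 0.100), and without wild-type isoform 1 the difference was 0.37 nt. Among overlapped sites, 20.6% of marked and 17.8% of other sites had both ends identical to a site elsewhere (difference 2.82 points, SD 6.34, n = 6, exact permutation p = 0.312, adjusted p = 0.357). FXR1 alone went the other way, with 46.3% of marked and 56.1% of other sites, and the difference without FXR1 was 5.21 points. It was 6.12 points without FXR2, 1.76 without I304N isoform 7, 1.72 without I304N isoform 1 and 1.17 without wild-type isoform 7. A site on the opposite strand overlapped 0% to 0.170% of marked sites and 0.003% to 0.320% of other sites (exact permutation p = 0.156, adjusted p = 0.208, n = 6).

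Wide sites of FXR1 were mostly marked. FXR1 had 19 sites of 40 nt or more, of which 15 were marked, 78.9% (54.4 to 93.9), against 6.11% of its whole list. The interval counts each site as separate, although several lay close together, so it is likely too narrow. Of its sites of 30 to 39 nt 22.2% were marked, and of those of 20 to 24 nt 4.35%. The share was also higher at the narrow end, with 10.9% (7.08 to 15.7) at 10 to 14 nt and 6.72% at 15 to 19 nt. In FXR2 8.16% of sites of 40 nt or more were marked, 27 of 331. Of the 15 wide marked FXR1 sites, 4 lay on chromosome 21 between 9827029 and 9827421 (hg19, plus strand) and 3 on chromosome 1 between 91852851 and 91853041 (minus strand). The others included 33963221 to 33963270 on chromosome 16, 24184096 to 24184147 on chromosome 19 and 33478148 to 33478214 on chromosome 17, and 14 of the 15 fell in places that carried the mark in all 6 libraries.

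The mark itself was compared at places where 2 libraries had overlapping sites. For each library, marked sites overlapped elsewhere were asked whether any partner was marked too. The share with a marked partner was 92.2% for I304N isoform 7 and 91.3% for I304N isoform 1. In FXR1 405 of 406 such sites had one, 99.8% (98.6 to 100), in FXR2 98.6% and in wild-type isoform 7 97.6%. Wild-type isoform 1 was lowest, with 75.7% (74.2 to 77.2), so that 779 of its 3207 marked sites with a partner met unmarked partners alone. Read from unmarked sites, the order was another one. Partners of both kinds met 2.80% of unmarked sites in FXR1 (237 sites), 1.57% in FXR2 (521) and 0.213% in wild-type isoform 1 (246). Marked partners alone met 0.272% in FXR1, 0.540% in FXR2 and 0.128% in wild-type isoform 1. On both counts the other libraries lay between wild-type isoform 1 and the FXR lists.

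Agreement differed by strand and by the size of the group. Minus-strand marked sites had a marked partner in 97.2% of cases for I304N isoform 7, 97.6% for I304N isoform 1, 100% for FXR1 and FXR2, 99.7% for wild-type isoform 7 and 80.1% for wild-type isoform 1. For plus-strand sites the shares were 89.5%, 87.9%, 99.5%, 97.4%, 96.2% and 72.6% in that order. The minus-strand share was the higher one in 27 of 30 ordered pairs of libraries and the lower in 1. Among marked sites with unmarked partners alone, the plus strand held 160 of 184 for I304N isoform 7, 236 of 262 for I304N isoform 1, 13 of 13 for FXR2, 47 of 49 for wild-type isoform 7 and 512 of 779 for wild-type isoform 1. Where all partners were marked, the plus strand held 53.5% to 59.6%. Places with conflicting marks were therefore mostly on the plus strand, and those with the same mark were closer to even.

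In the 4 FMR1 libraries, marked sites standing alone in their group had a marked partner most often. In wild-type isoform 1, 92.1% of marked sites from groups of 1 site had a marked partner (90.7 to 93.4), against 71.8% (68.6 to 74.8) for groups of 2 or 3 sites and 41.7% (38.0 to 45.4) for groups of 4 or more. The same order was seen in I304N isoform 1, at 95.6%, 83.3% and 64.2%, and in I304N isoform 7, at 96.4%, 84.5% and 63.96%. The FXR lists did not follow this order: in FXR1 99.7% of marked sites from groups of 1 site had a marked partner, and in FXR2 98.5%, against 100% in larger groups, which held few such sites. Marked sites of wild-type isoform 1 with unmarked partners alone came from groups of 4.61 sites on average and were 58.3 nt wide, against 1.79 sites and 32.5 nt where all partners were marked. The plus-strand excess over other sites was also larger in groups of 2 or more sites in each library except FXR1. In I304N isoform 1 the plus strand held 78.3% of marked sites from such groups and 61.1% of those from groups of 1 site, against 50.7% and 50.6% of other sites. In FXR1 the plus strand held 58.3% of the 12 marked and 81.8% of the 22 other sites from such groups.

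**Figure D3:**
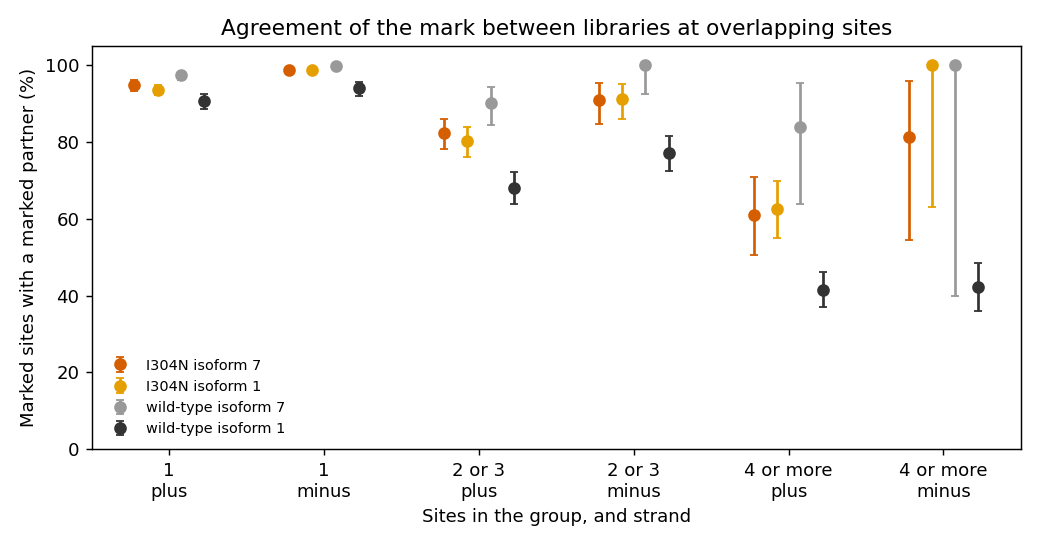
Share of marked sites with a marked partner in another library (percent, vertical axis), by number of sites in the group and strand (horizontal axis), for the 4 FMR1 libraries; error bars are exact 95% intervals. Plus-strand shares are lower for larger groups in all 4 libraries, and in wild-type isoform 1 groups of 4 or more sites reach 41.5% on the plus and 42.1% on the minus strand; the other minus-strand points for such groups rest on 4 to 16 sites.

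Sites of all libraries that overlapped on a strand were joined into 238086 merged regions, of which 11832 held a marked site. Among regions with a site in all 6 libraries, 184 of 1438 held a marked site, 12.8% (11.1 to 14.6). In regions found in 2, 3, 4 and 5 libraries this share was 4.12%, 4.24%, 4.46% and 5.71%, and in regions of 1 library 5.40%. Regions with more libraries have more sites and so more chances to carry a mark. Regions with a marked site in every library that had a site were also most frequent among those of all 6. They made up 110 of 1438 or 7.65% (6.33 to 9.15), against 2.71% to 3.13% of regions in 2 to 5 libraries. A library counted here with 1 marked site or more, even beside unmarked ones. Several sites of a library in a region therefore gave it more chances. Regions with conflicting marks, meaning a marked site in some but not all libraries with a site, numbered 1520. Of these, 75.9% (73.7 to 78.1) were on the plus strand. Among regions of 2 or more libraries, the plus strand held 57.9% of those with a marked site in every library with a site. It held 50.6% of those with no mark. Regions where a library had both marked and unmarked sites were not set apart.

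**Figure D4:**
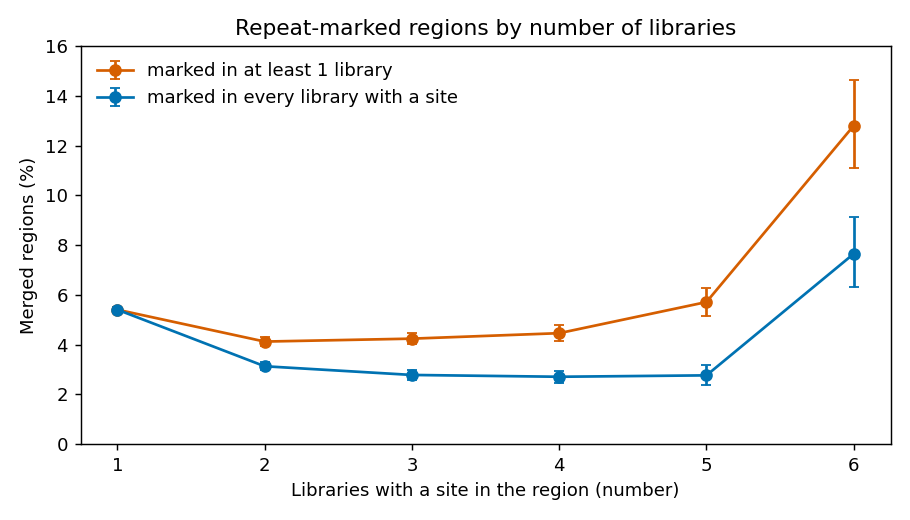
Share of merged regions (percent, vertical axis) by the number of libraries with a site (horizontal axis). Points give regions that held a repeat-marked site in at least 1 library, and those that did so in every library with a site. Error bars are exact 95% intervals. Both shares are highest for regions found in all 6 libraries, at 12.8% and 7.65%.

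The 110 regions were chosen for a marked site in each library, so that every library had to hold about as many there and short lists had to give them a larger share. They held 132 marked sites of FXR1, 23.96% of its marked list (20.4 to 27.7), and 150 of FXR2, 11.1% (9.48 to 12.9). In the FMR1 libraries they held 144 marked sites of I304N isoform 7 (4.67%), 146 of I304N isoform 1 (3.64%), 141 of wild-type isoform 7 (3.99%) and 122 of wild-type isoform 1 (1.87%). In the 1254 regions of all 6 libraries without a mark, FXR1 had 17.6% and wild-type isoform 1 had 1.55% of their unmarked sites.

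Several of these regions lay close together. Chromosome 2 held 13 of the 110, of which 9 lay in 1 window of 50 kb from 133000001 to 133050000 (minus strand). Chromosome 16 had 4 in the window from 33950001 to 34000000 (plus strand), and chromosome 19 had 3 in that from 24150001 to 24200000 (minus strand). By number of marked sites, the first region was on the plus strand of chromosome 12, at 1310126 to 1311574, with 45 marked among 81 sites. It was made up of 11 marked and 3 other sites for I304N isoform 7, 9 and 7 for I304N isoform 1, 8 and 14 for FXR1, 14 and 7 for FXR2, and 2 and 5 for wild-type isoform 7. In wild-type isoform 1 it held 1 marked site of 1425 nt, the widest marked site of all 6 lists, which spanned 22 FXR1 and 21 FXR2 sites.

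The next regions held marked sites only. The plus strand of chromosome 21, at 9826858 to 9827266, had 18 sites: 2 for I304N isoform 7, 3 for I304N isoform 1, 2 for FXR1, 5 for FXR2, 4 for wild-type isoform 7 and 2 for wild-type isoform 1. A little further on, 9827273 to 9827579, a second region had 14 sites, 4 of them in FXR1. The minus strand of chromosome 1 held 15 sites at 91852784 to 91853049, of which FXR1 and FXR2 had 5 sites each, I304N isoform 1 had 2, and the other libraries had 1 each. At 52517547 to 52517787 on chromosome 19, minus strand, the numbers were 5, 3, 1, 1, 2 and 1 in the order used for the whole lists.

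To follow how the marked sites were spread, both strands of the genome were cut into windows of 50 kb. Marked sites lay in fewer windows than the same number of other sites would, by analytic rarefaction. Rarefaction drew the other sites singly, while the mark covered whole groups of neighbouring sites. Part of the lower number therefore follows from the groups, and rarefaction by group was not run. They occupied 1533 windows for I304N isoform 7, 2000 for I304N isoform 1, 433 for FXR1, 931 for FXR2, 2395 for wild-type isoform 7 and 2033 for wild-type isoform 1. Relative to the rarefied number for other sites this was 0.710, 0.696, 0.922, 0.865, 0.954 and 0.585. By this ratio crowding was strongest in wild-type isoform 1 and in the I304N libraries, which also had the largest marked groups. The share of marked sites in the 10 windows richest in them gave another order. It was 12.5% in FXR1, 9.26% in FXR2, 7.66% in wild-type isoform 1 and 6.34% in I304N isoform 1. I304N isoform 7 had 6.26% and wild-type isoform 7 had 5.74%. Both measures depend on the number of marked sites, which differed between libraries. With windows of 500 kb the ratio for wild-type isoform 7 was 1.07, above the rarefied number.

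The window with the largest mean share of the marked lists was the one on the minus strand of chromosome 2, at 133000001 to 133050000. It held 23 marked sites for I304N isoform 7, 31 for I304N isoform 1, 13 for FXR1, 13 for FXR2, 44 for wild-type isoform 7 and 47 for wild-type isoform 1. These made up 93.4% of its 183 sites and spanned 27275 nt, from 133011924 to 133039198. As a share of the marked list the window was highest in FXR1, at 2.36%, and lowest in wild-type isoform 1, at 0.720%. Windows were ranked by the mean of these shares, in which a site weighs more in a short list. The ranking therefore favours windows high in FXR1 or FXR2, and the order of libraries within them was not tested. None of its 53 regions with a marked site carried conflicting marks.

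Windows made up mostly of marked sites also lay on chromosomes 21, 16 and 19. The plus strand of chromosome 21, at 9800001 to 9850000, had 18, 15, 6, 15, 15 and 13 marked sites in the order used above, all within 1891 nt. The plus strand of chromosome 16, at 33950001 to 34000000, had 13, 16, 6, 8, 18 and 18, all within 2367 nt. The minus strand of chromosome 19, at 24150001 to 24200000, had 4, 9, 8, 9, 21 and 21, within 3348 nt. On chromosome 21, 4 of 12 regions with a marked site carried conflicting marks, and none did in the chromosome 16 and 19 windows. In these 3 windows FXR1 or FXR2 had the largest share of the marked list, at 1.09% or more. These shares were among the values that chose the windows.

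Other windows rich in marked sites held many unmarked ones too. Of 661 plus-strand sites at 62550001 to 62600000 on chromosome 10, 135 were marked, 6 of them in wild-type isoform 7 and 61 from wild-type isoform 1, and 32 of 59 regions with a mark carried conflicting marks. Chromosome 5 had 142 marked among 432 plus-strand sites at 44800001 to 44850000. The plus strand of chromosome 19, at 44650001 to 44700000, had 112 marked among 377, with 51 in wild-type isoform 1. Conflicting marks were thus frequent in the chromosome 10 window and absent from the chromosome 2 window.

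A further pair of windows, also made up mostly of marked sites, differed widely between libraries. On the plus strand of chromosome 11, at 17350001 to 17400000, there were 10 marked sites for I304N isoform 7, 33 for I304N isoform 1, 1 for FXR1, 7 for FXR2, 24 for wild-type isoform 7 and 64 for wild-type isoform 1. In the plus-strand window at 73200001 to 73250000 on chromosome X the numbers were 2, 2, 4, 19, 5 and 41, so that FXR2 had 1.41% of its marked list there and I304N isoform 1 had 0.050%. Of the 54 regions with a mark in the chromosome X window, 41 were marked in 1 library only.

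**Figure D5:**
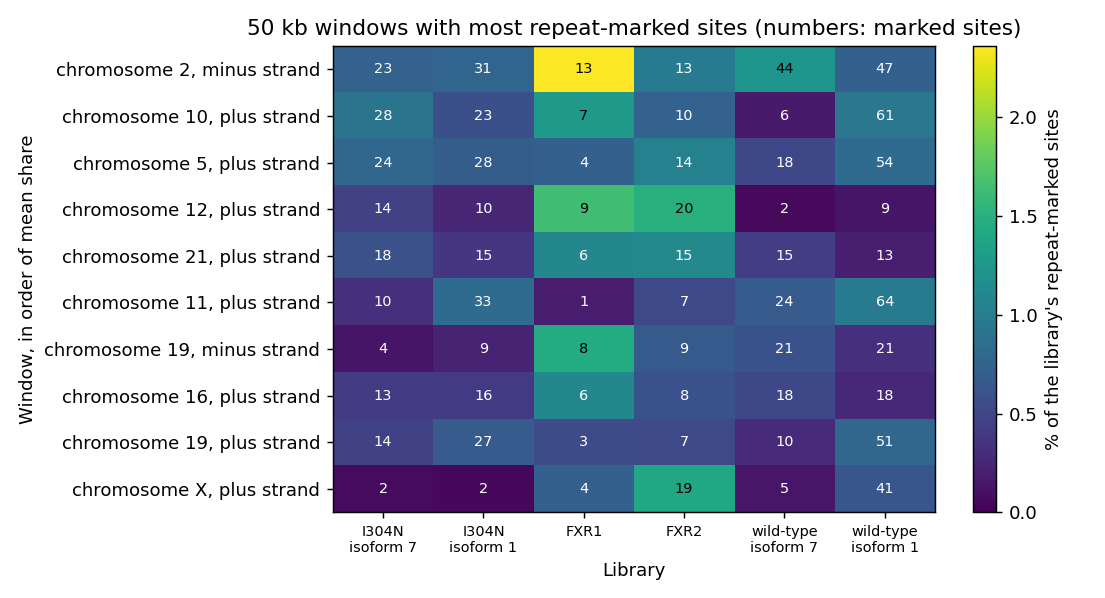
The 10 windows of 50 kb with the largest mean share of the repeat-marked lists (rows, named by chromosome and strand) in each library (columns); colour gives the percent of the library's marked sites and the printed number the marked sites. The chromosome 2 window is highest in FXR1, with 13 sites or 2.36% of its marked list. The windows were chosen by these shares, in which a site weighs more in a short list.

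Among 5419 windows with at least 20 sites over all libraries, 7 consisted of marked sites alone, or 0.129%. A majority of sites was marked in 38, and 65% of the windows held no marked site. The 7 windows were on chromosomes 6, X, 9, 8, 1 (a pair) and 12. They held 23 sites of I304N isoform 7, 31 of I304N isoform 1, 18 of FXR1, 25 of FXR2, 36 of wild-type isoform 7 and 35 of wild-type isoform 1. As a share of all sites this was 0.1996% (0.118 to 0.315) in FXR1 and 0.072% (0.047 to 0.107) in FXR2, against 0.023% to 0.046% in the FMR1 libraries. The order was another one over the 38 windows with a majority of marked sites. These held 0.387% of all sites of I304N isoform 7, 0.297% of I304N isoform 1, 0.865% of FXR1 (0.684 to 1.08), 0.571% of FXR2 (0.494 to 0.656), 0.413% of wild-type isoform 7 and 0.687% of wild-type isoform 1 (0.641 to 0.735). The window on the minus strand of chromosome 1, at 91850001 to 91900000, had 7 sites in FXR1 and 6 in FXR2, against 2 in each wild-type library. It thus gave 7 of the 18 FXR1 sites, and FXR1 had a site in only 5 of the 7 windows.

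Single windows were also ranked by the ratio of marked sites, scaled to the marked list of each library. Windows so ranked were picked by the counts that give their ratios, which are therefore likely too extreme. For FXR2 over wild-type isoform 1 the first was on the plus strand of chromosome 12, at 1300001 to 1350000, with 20 against 9 marked sites, a ratio of 10.7 (4.68 to 26.8). All sites of this window were likewise a larger part of the FXR2 list, 88 sites or 0.255%, against 77 or 0.063% in wild-type isoform 1. The count also depends on how sites were cut, since the single site of 1425 nt described above counts as 1 in wild-type isoform 1 where FXR2 had 21. At 28200001 to 28250000 on chromosome 19 (minus strand) FXR2 had 2 marked sites and wild-type isoform 1 had 65, a ratio of 0.149 (0.018 to 0.559). Sites of any kind went the same way there, 3 in FXR2 (0.0087% of its list) and 80 in wild-type isoform 1 (0.0656%). In the plus-strand window at 44450001 to 44500000 on chromosome 19, FXR2 had 0 marked sites against 28 for wild-type isoform 1, and the exact interval of the ratio reached up to 0.681. Sites of any kind were 8 (0.023% of the list) against 72 (0.059%) in this window.

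For I304N over wild type, ranked on both isoforms together, the 5 first windows all had more marked sites with I304N. On the plus strand of chromosome 1, at 1150001 to 1200000, I304N isoforms 1 and 7 had 11 and 7 marked sites, against none in either wild-type library. The exact intervals of these ratios began at 4.09 in isoform 1 and 1.65 in isoform 7. Sites of any kind showed the same direction there, with 25 against 1 in isoform 1 and 20 against 9 in isoform 7. For the plus-strand window at 10200001 to 10250000 on chromosome 19 the numbers were 8 against 0 in isoform 1 and 14 against 3 in isoform 7, where the ratio was 5.35 (1.49 to 29.04). For minus-strand sites at 99950001 to 100000000 on chromosome 14 they were 7 against 0 in isoform 1 and 10 against 0 in isoform 7, and for sites of any kind 24 against 2 and 35 against 5. Sites of any kind were also more numerous with I304N in both isoforms in each of the 5 windows. Of the 5 windows 4 were on the plus strand. That strand held 63.7% of all marked sites of I304N isoform 7 and 65.1% of those of isoform 1, so no excess can be read from 5 windows.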

How the data were processed

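The 6 lists of PAR-CLIP sites were analysed, 1 library per protein form, grouped by the immunoprecipitated protein in the labels. Per the submitters' processing notes, Bowtie 0.12.7 and hg19 were used. For the site caller, its thresholds and the repeat annotation, nothing was given in the sources used here. The deposited score is the authors' mark, per the file headers: 0 in a repeat, 1000 outside. Coordinates are printed 1-based.

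Overlap was at least 1 nt on the same strand. The group of a site was read from its name. Measures were compared within libraries by an exact sign-flip permutation test. Shares carry exact Clopper-Pearson intervals and ratios exact conditional ones, at 95%, for counting error only. Window ratios were ranked after scaling to 1000 marked sites per library with a pseudocount of 1. Windows named are the 10 with the largest mean share of the marked lists, the densest of each library, those with at least 20 sites and the largest marked share, and the 5 most extreme by ratio; regions named are those marked in all 6 libraries with most marked sites. The members and rules were chosen with earlier results of these data known. The reference annotation at hand was on GRCh38, another build, and was not used here. Functions were tested on simulated data. Python 3.11.15, numpy 2.4.6, pandas 2.3.3, scipy 1.17.1 and matplotlib 3.10.9 were used.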

Additional observations from a re-analysis of the deposited data

Results flagged for a closer look

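The isoforms differed in opposite directions in the 2 forms of FMR1. The ratio of marked shares, isoform 7 over isoform 1, was 1.15 (1.10 to 1.204) with I304N and 0.842 (0.808 to 0.877) in the wild type. With 1 library per form the difference between these ratios was not tested. Counted as groups, the ratios were 1.14 and 0.912, so the wild-type value lay nearer to 1. Among sites overlapped in another library they were 1.04 (0.985 to 1.10) with I304N and 0.734 (0.694 to 0.776) in the wild type, so that the I304N difference was then within counting error.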

How the results depend on the processing

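No paired analysis was possible because each protein form had 1 library, so that replicate numbers pair no libraries of different forms. Marked and other sites were compared within each library. Of 117 alternatives, 93 kept the direction and the side of the threshold or, where no test was run, moved by less than counting error, or by less than 1.5 times for counts. The minus strand alone, 1 site per group and groups in place of sites were chosen after seeing the data. Of the 8 measures, none passed an adjusted p of 0.05 under any of these alternatives, and with 5 libraries the smallest p is 0.0625. The side of the threshold was nearly fixed by the design, so keeping it says little. Leaving out 1 library at a time gave differences of 9.87 to 14.3 points for isolated sites, 6.42 to 9.24 for the plus strand, 2.88 to 3.79 for chromosome 19, -9.88 to -8.07 for sharing, 1.17 to 6.12 for identical ends and -0.089 to -0.042 for the opposite strand. The range was 0.370 to 1.05 nt for width and -0.162 to -0.051 for the number of libraries. Isolation over the shorter distance tried, and the plus-strand share without the 5 densest windows, were higher at marked sites in 5 of 6 libraries. Lists without reads limit every value to counts of sites.

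The signs of 3 differences turned, none past the threshold in an exact permutation test (n = 6). The number of other libraries differed by 0.049 with an overlap of at least 50% of both sites (exact permutation, adjusted p = 0.469). Opposite strand sites within 1000 nt differed by 0.377 points (exact permutation, adjusted p = 0.167), and width on the minus strand by -0.337 nt (exact permutation, adjusted p = 0.917). The marked share of wild-type isoform 1 was 5.22% without sites of 60 nt or more, 5.92% by bases and 5.05% by groups. Among sites overlapped elsewhere it was 3.28% for I304N isoform 7, 3.15% for I304N isoform 1, 5.24% for FXR1, 3.36% for FXR2, 3.36% for wild-type isoform 7 and 4.58% for wild-type isoform 1. On the minus strand it was 2.58% for I304N isoform 7, 2.16% for I304N isoform 1, 3.52% for FXR2, 3.86% for wild-type isoform 7 and 4.69% for wild-type isoform 1. Marked sites with a marked partner made up 80.6% for wild-type isoform 1 with an overlap of 50% of both sites. On the minus strand they made up 97.2% for I304N isoform 7, 97.6% for I304N isoform 1, 100% for FXR1, 100% for FXR2, 99.7% for wild-type isoform 7 and 80.1% for wild-type isoform 1. The cause was not tested.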
